A study of Mus musculus with 10 samples.

Results

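The cytochrome P450 family 2 genes (Cyp2) were read in the livers of mice that lack malic enzyme 1 (Me1) in hepatocytes. A gene was a member when its symbol was Cyp2 followed by a subfamily letter and a number, with Cyp2c70 left out. This gave 44 of the 31218 genes in the deposited table. They comprised 4 genes of subfamily 2a, 5 of 2b, 12 of 2c, 8 of 2d, 7 of 2j and 1 each of 2e, 2f, 2g, 2r, 2s, 2t, 2u and 2w. Of these, 36 had enough counts to be tested. RNA-seq had been done on 5 livers of hepatocyte-specific Me1 knockout mice (HKO, genotype label Me1 Alb/Alb) and on 5 livers of wild-type littermates with the floxed allele alone (Flox, genotype label Me1 flox/flox). Both groups had eaten a high-fat diet for 16 weeks, so no liver of a lean mouse enters any comparison. The genotype label names Alb, the albumin gene, for the knockout, and neither sex nor age nor batch was labelled. The numbers 1 to 5 were given to each group's livers here in place of the submitters' titles, and nothing beyond separate titles says that each is a separate animal, so p-values measure the spread between these samples.

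Cyp2 enzymes sit in the endoplasmic reticulum membrane and add an oxygen atom to drugs, solvents, steroids and fatty acids, with electrons passed on from NADPH by the reductase Por. Many of their genes lie in clusters of near copies, and in mouse liver they are known for differing between the sexes, between the zones of the lobule, and after activation of the receptors CAR and PXR. Me1 itself is a cytosolic enzyme that makes NADPH from malate.

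Me1 averaged 5.58 ± 0.841 FPKM in HKO livers and 36.4 ± 6.18 FPKM in Flox livers (SD, n = 5 each). FPKM, as the authors deposited it, is a count of read fragments divided by gene length and library size. The HKO livers lay between 4.90 and 7.00 FPKM and the Flox livers between 30.2 and 46.7 FPKM, without overlap (exact permutation test, two-sided, p = 0.00794, the smallest that 5 against 5 allows). Total counts ranged from 52790000 to 60765120 per liver. Some livers held RNA of other tissues, most of it in HKO 4 and HKO 5. The summed FPKM of 8 epidermal markers was 0.8, 2.9, 0.6, 146.7 and 155.3 in HKO 1 to 5, against 0.5 to 1.2 in Flox livers. The sum of 7 skeletal muscle markers was 133.5 in HKO 4 and 145.6 in HKO 5, 2.1 to 2.8 in HKO 1 to 3, and 0.1 to 2.0 in Flox livers. Kidney tubule markers, at lower levels, were in other livers: the sum of 5 markers was 6.88, 0.0717, 0, 0.0285 and 0 FPKM in HKO 1 to 5, against 3.58, 5.37, 17.02, 0.00886 and 4.31 FPKM in Flox 1 to 5. The sum of 7 hepatocyte markers ran from 28892 to 33551 FPKM in HKO livers and from 35073 to 39488 FPKM in Flox livers. Liver markers were thus abundant in every sample, but their sum was lower in every HKO liver than in any Flox liver. By the test given below, Apoa1 and Serpina1c were lower and 5 did not pass, beside 6.4% of all tested genes lower. Their median log2 fold change, HKO over Flox, was -0.48, and -0.38 without HKO 4 and HKO 5. The part of this difference in the Cyp2 values was not tested. In bulk liver, fewer cells of a type and less RNA per cell cannot be told apart.

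Of the 36 tested Cyp2 genes, 12 passed the threshold: 2 rose in HKO livers (Cyp2a4 and Cyp2a5) and 10 fell (Cyp2c23, Cyp2c37, Cyp2c50, Cyp2c54, Cyp2c67, Cyp2d10, Cyp2d26, Cyp2d40, Cyp2e1 and Cyp2j5). The threshold was a Benjamini-Hochberg adjusted p of 0.05 in edgeR's quasi-likelihood test over all 18065 tested genes. The called share was 33.3% of tested Cyp2 genes, beside 11.3% of all tested genes (878 higher and 1156 lower, 43.2% higher; with limma on log2(FPKM + 0.5), 3267 higher and 394 lower, 89.2% higher). In the higher direction it was 5.56% beside 4.86% of all genes, and in the lower direction 27.8% beside 6.4%. The median log2 fold change, HKO over Flox, was -0.19 over the tested Cyp2 genes and 0.02 over all tested genes. Another 35 tested genes had symbols made of Cyp, a number, letters, a number and sometimes a last letter. They included Cyp2ab1 and left out pseudogenes with symbols ending in -ps. Cyp2c70, left out of the members, was not kept out of this set. Of these 35, 3 rose and 10 fell, with a median log2 fold change of -0.22. On counts scaled by library factors (TMM), 2 Cyp2 genes had all HKO livers above all Flox livers, beside 4.41% of all genes, and 9 had all HKO livers below, beside 6.48% (either direction, 10.9% of all genes). Fold changes below come from that scale. It sits 0.23 log2 units lower for HKO than a ratio of FPKM does, which is the difference of the mean log2 TMM factor between the groups. Without HKO 4 and HKO 5, 37 Cyp2 genes were tested. Cyp2a4, Cyp2a5 and Cyp2f2 were then higher, beside 2.45% of all genes, and 8 were lower, beside 2.91% (either direction, 5.36% of all genes), since Cyp2c37 and Cyp2c67 no longer passed.

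**Figure D1:**
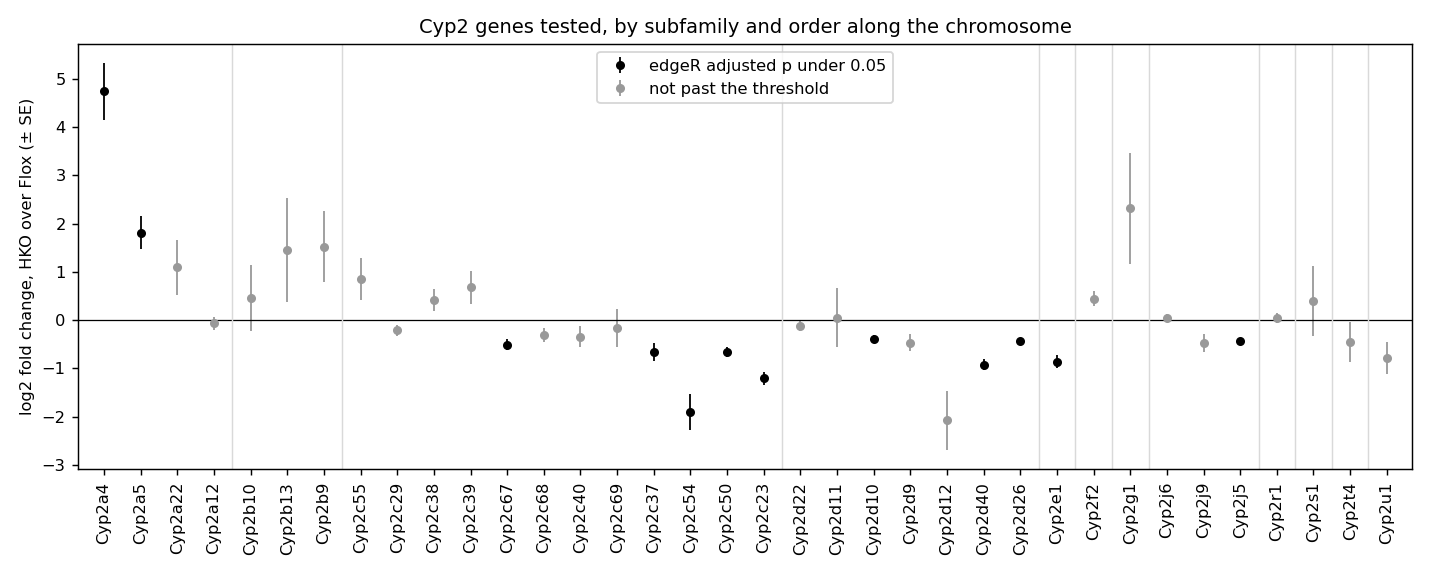
Log2 fold change, HKO over Flox, with its standard error for each tested Cyp2 gene, by subfamily and order along the chromosome. Cyp2a4 at 4.74 and Cyp2a5 at 1.82 are the called genes above 0, and the 10 called genes below 0 are spread over subfamilies 2c, 2d, 2e and 2j.

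Subfamily 2a held both genes that rose. Cyp2a4, a steroid hydroxylase known to be more abundant in female than in male mouse liver, lies on chromosome 7 from 26307169 to 26315088 on the plus strand. It stood at 96.2, 195, 168, 33.7 and 129 FPKM in HKO 1 to 5, against 4.70, 1.04, 3.78, 5.37 and 5.08 FPKM in Flox 1 to 5. The lowest HKO liver, HKO 4, was several times above the highest Flox liver. Cyp2a4 was 26.7-fold higher in HKO livers (log2 4.74 ± 0.58 SE, edgeR adjusted p = 0.00124). Cyp2a5, the mouse coumarin hydroxylase and a gene expressed around the central vein, lies at 26835305 to 26843548 on the same strand. It stood at 308, 628, 440, 378 and 558 FPKM in HKO 1 to 5, against 107, 47.1, 168, 162 and 77.9 FPKM in Flox 1 to 5. No Flox liver reached the lowest HKO liver, HKO 1. Cyp2a5 was 3.52-fold higher in HKO livers (log2 1.82 ± 0.34 SE, edgeR adjusted p = 0.00922). Summed, the pair came to 404, 823, 608, 411 and 687 FPKM in HKO 1 to 5, against 112, 48.2, 172, 167 and 83.0 FPKM in Flox 1 to 5.

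Cyp2a4 and Cyp2a5 are near copies, which bears on how reads were split between them. Of all 150-base windows of the Cyp2a4 transcripts, 4.22% occurred letter for letter in another Cyp2 gene's transcripts, and for Cyp2a5 it was 4.56%. Their longest reading frames, of 1485 and 1542 bases, had 23 mismatches where they aligned, beside gaps from the difference in length. No source used here says how the authors assigned reads that fit both genes, so the level of each is less certain than their sum. Their promoters are shown because the only called increases fell on this pair. The windows run from 250 bases before to 50 bases after the RefSeq start on GRCm38.p6, and capitals mark the bases at which the pair differs. They were 97.7% identical, with 5 mismatches and 2 gap positions.
Cyp2a4, chr7:26306942-26307241, plus strand: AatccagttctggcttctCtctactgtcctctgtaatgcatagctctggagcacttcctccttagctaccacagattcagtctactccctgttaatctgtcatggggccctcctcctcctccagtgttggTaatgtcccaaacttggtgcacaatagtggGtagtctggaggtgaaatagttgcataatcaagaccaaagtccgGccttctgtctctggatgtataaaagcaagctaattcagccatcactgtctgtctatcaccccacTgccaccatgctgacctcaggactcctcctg
Cyp2a5, chr7:26835089-26835388, plus strand: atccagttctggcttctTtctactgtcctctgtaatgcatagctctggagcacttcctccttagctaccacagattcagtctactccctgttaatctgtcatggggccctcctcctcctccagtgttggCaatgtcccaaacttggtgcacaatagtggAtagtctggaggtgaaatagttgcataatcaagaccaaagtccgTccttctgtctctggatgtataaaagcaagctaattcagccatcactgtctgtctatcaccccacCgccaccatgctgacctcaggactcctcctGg
Both windows hold the TATA box letters TATAAA, searched on both strands. These letters were in 18 of the 39 Cyp2 promoters found, which cover 37 of the 44 genes, and in 13.6% of all 32817 RefSeq mouse promoters.

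The other members of 2a did not pass the test. Cyp2a22 stood at 16.2, 34.5, 33.6, 13.5 and 29.4 FPKM in HKO 1 to 5, against 17.7, 3.53, 21.3, 5.79 and 2.83 FPKM in Flox 1 to 5 (edgeR adjusted p = 0.252). Flox 1 and Flox 3 lay within the HKO range, and the other Flox livers lay below it. Cyp2a12 averaged 156 ± 17.8 FPKM in HKO livers and 140 ± 21.7 FPKM in Flox livers (edgeR adjusted p = 0.785).

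**Figure D2:**
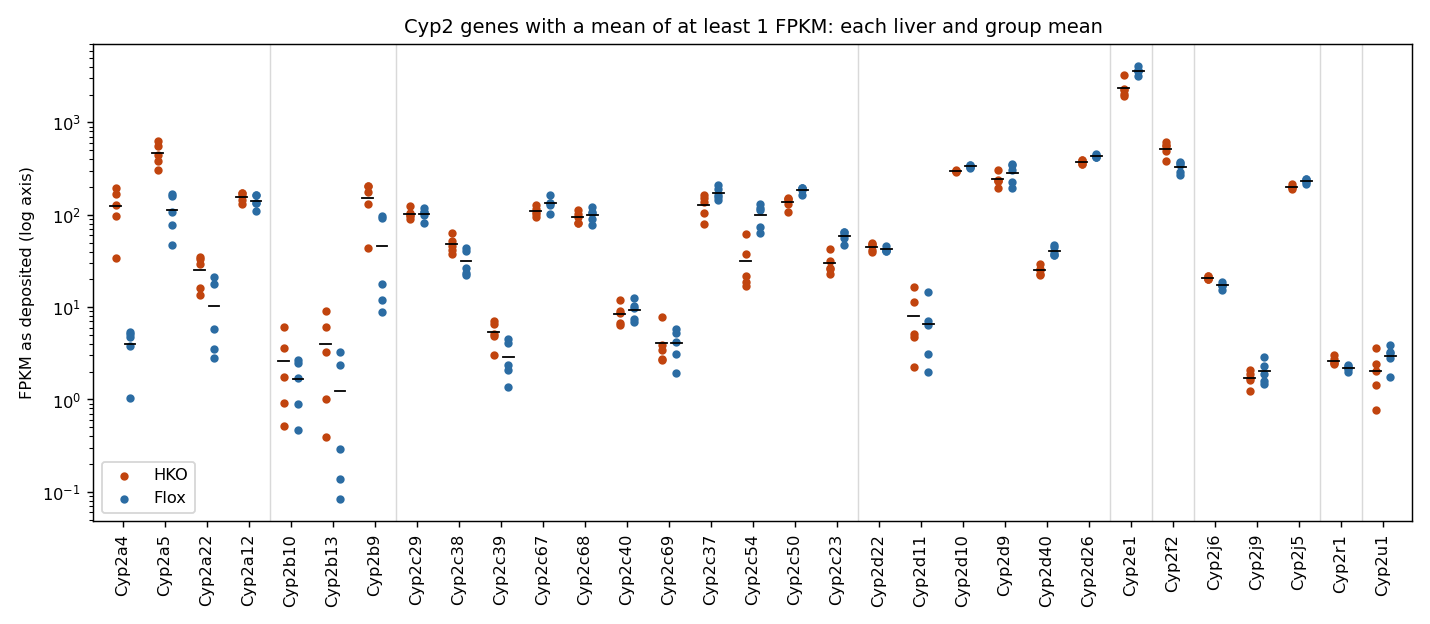
FPKM as deposited, on a log axis, of each liver and each group mean for Cyp2 genes averaging at least 1 FPKM, HKO left of Flox. Cyp2e1 is the most abundant in both groups, at means of 2349 in HKO and 3636 in Flox, and the Cyp2a4 points of the groups are the farthest apart.

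Subfamily 2b had no called gene, and its values varied widely within both groups. Cyp2b9, known as female-biased in mouse liver, stood at 130, 204, 207, 43.3 and 175 FPKM in HKO 1 to 5, against 97.6, 17.6, 93.3, 11.9 and 8.95 FPKM in Flox 1 to 5. Flox 1 and Flox 3 were above HKO 4, so the groups overlapped (log2 1.52 ± 0.74 SE, edgeR adjusted p = 0.214). Its neighbour Cyp2b13, also female-biased, was also highest in Flox 1 and Flox 3 among the Flox livers, at far lower levels, 0.397 to 9.005 FPKM in HKO livers and 0.0830 to 3.30 FPKM in Flox livers (edgeR adjusted p = 0.425). Cyp2b10, the gene most used as a sign of CAR activation, ranged from 0.518 to 6.13 FPKM in HKO livers and from 0.466 to 2.67 FPKM in Flox livers (edgeR adjusted p = 0.714). The promoters of Cyp2b9 and Cyp2b13 are shown because Flox 1 and Flox 3 were the high Flox livers and HKO 4 the lowest HKO liver for both genes. This order was not particular to the pair. Cyp2a12, Cyp2a22, Cyp2c38, Cyp2c39, Cyp2d22 and Cyp2f2 also had Flox 1 and Flox 3 highest among Flox livers and HKO 4 lowest among HKO livers. They were 99.3% identical over the same window on GRCm38.p6, and capitals mark the 2 mismatches.
Cyp2b9, chr7:26173159-26173458, plus strand: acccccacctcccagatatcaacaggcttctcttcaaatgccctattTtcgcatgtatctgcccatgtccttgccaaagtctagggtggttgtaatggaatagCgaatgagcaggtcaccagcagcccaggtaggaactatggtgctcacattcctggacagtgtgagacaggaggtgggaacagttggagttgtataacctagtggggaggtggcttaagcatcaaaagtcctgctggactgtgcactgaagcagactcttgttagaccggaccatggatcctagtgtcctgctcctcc
Cyp2b13, chr7:26061245-26061544, plus strand: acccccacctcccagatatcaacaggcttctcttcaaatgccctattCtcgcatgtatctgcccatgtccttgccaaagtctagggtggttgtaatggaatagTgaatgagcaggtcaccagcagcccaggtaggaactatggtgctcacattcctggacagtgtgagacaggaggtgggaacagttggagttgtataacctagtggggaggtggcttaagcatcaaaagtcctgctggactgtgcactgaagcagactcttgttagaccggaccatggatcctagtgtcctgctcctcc
Neither of these windows holds TATAAA. Cyp2b19, a keratinocyte gene, and Cyp2b23 were too low to test. Cyp2b19 had 0 counts in every Flox liver and in HKO 1 to 3, and 0.277 FPKM in HKO 4 and 0.364 FPKM in HKO 5. Cyp2b23 was likewise seen only in HKO 4, at 0.133 FPKM, and in HKO 5, at 0.161 FPKM. These are the livers with the epidermal and muscle RNA given above, whose part in these values was not tested.

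**Figure D3:**
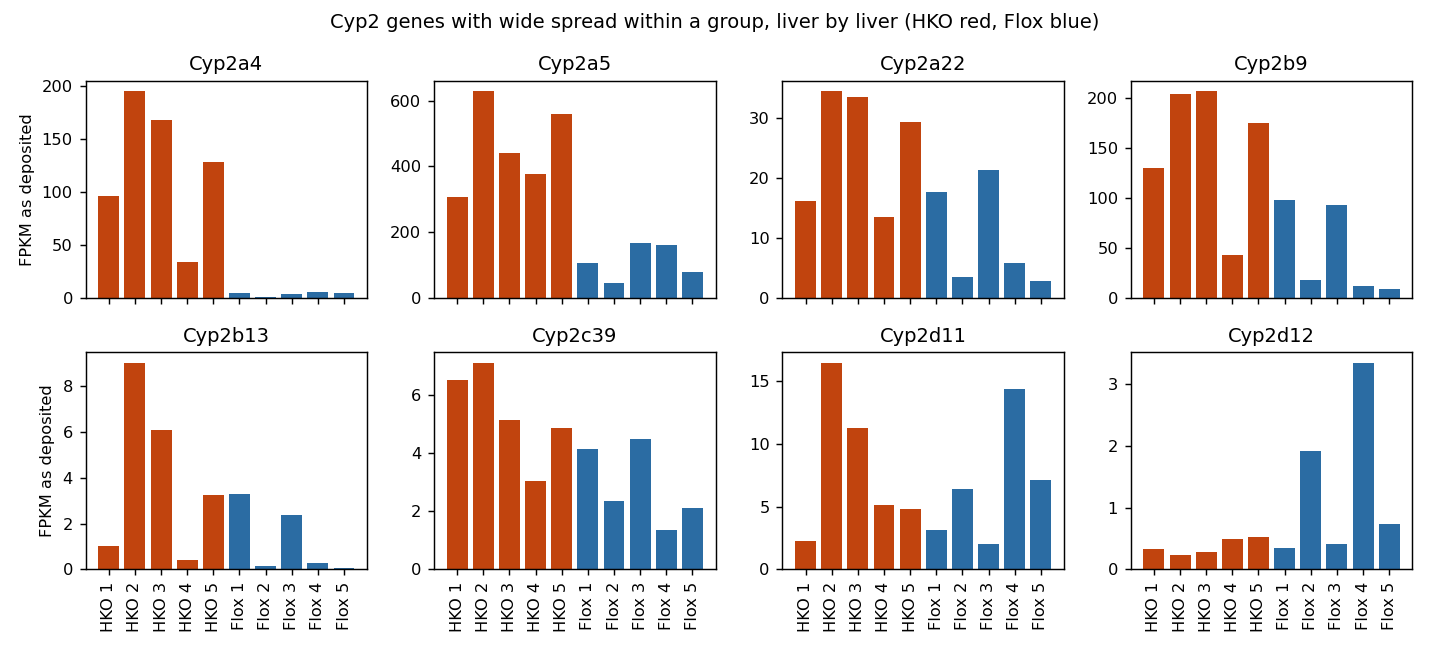
FPKM as deposited, liver by liver, for Cyp2 genes with a wide spread within a group, HKO left of Flox. In Cyp2a22, Cyp2b9, Cyp2b13 and Cyp2c39, Flox 1 and Flox 3 stand above the other Flox livers and HKO 4 is the lowest HKO liver.

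Subfamily 2c, on chromosome 19, whose enzymes oxidise arachidonic and linoleic acid, had 5 of its 12 genes lower and none higher. Its genes other than Cyp2c23 lie together between 39007019 and 40113950. Cyp2c23 (chromosome 19, 44005022 to 44029208, minus strand), an arachidonic acid epoxygenase, stood at 26.5, 22.7, 26.1, 42.1 and 31.2 FPKM in HKO 1 to 5, against 46.5, 56.6, 64.6, 64.7 and 60.0 FPKM in Flox 1 to 5. All HKO livers were below all Flox livers, and HKO 4 came nearest to them. Cyp2c23 was 2.31-fold lower in HKO livers (log2 -1.21 ± 0.14 SE, edgeR adjusted p = 0.000528). Cyp2c54 (40037940 to 40073827, minus strand) stood at 37.5, 16.7, 18.9, 61.5 and 21.8 FPKM in HKO 1 to 5, against 63.9, 113, 74.3, 129 and 117 FPKM in Flox 1 to 5. The groups did not overlap, but HKO 4 and Flox 1 were nearly level. Cyp2c54 had the largest drop among the called Cyp2 genes, 3.74-fold lower in HKO livers (log2 -1.90 ± 0.37 SE, edgeR adjusted p = 0.0106).

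Cyp2c50, a near copy of Cyp2c54 with a reading frame identity of 95.2%, moved less. It stood at 147, 147, 106, 153 and 132 FPKM in HKO 1 to 5, against 163, 192, 185, 196 and 196 FPKM in Flox 1 to 5, with no overlap. It was 1.59-fold lower in HKO livers (log2 -0.66 ± 0.11 SE, edgeR adjusted p = 0.00349). Cyp2c37 (39992424 to 40012243, plus strand), a target of CAR, stood at 136, 163, 78.8, 152 and 104 FPKM in HKO 1 to 5, against 146, 210, 165, 156 and 190 FPKM in Flox 1 to 5. HKO 2 and HKO 4 were above Flox 1 in FPKM, and the call (log2 -0.67 ± 0.19 SE, edgeR adjusted p = 0.0465) was lost under 15 of 21 other settings, among them leaving out any single liver other than HKO 2. Cyp2c67 (39608842 to 39649051, minus strand) stood at 93.9, 107, 116, 128 and 103 FPKM in HKO 1 to 5, against 129, 135, 102, 134 and 164 FPKM in Flox 1 to 5. Flox 3 lay among the HKO livers, so the groups overlapped although the gene passed the test (log2 -0.51 ± 0.12 SE, edgeR adjusted p = 0.0208), and the call was lost without HKO 5. Of the 150-base windows of Cyp2c67, 13.01% were shared with another Cyp2 gene, which makes its level uncertain.

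The other 7 genes of 2c did not pass. Cyp2c29, a pericentral CAR target, averaged 103 ± 12.5 FPKM in HKO livers and 102 ± 13.2 FPKM in Flox livers (edgeR adjusted p = 0.263). Cyp2c68 averaged 94.2 ± 12.6 FPKM in HKO livers and 100 ± 16.99 FPKM in Flox livers (edgeR adjusted p = 0.21). Cyp2c38 averaged 48.0 ± 9.80 FPKM in HKO livers and 31.3 ± 9.98 FPKM in Flox livers (edgeR adjusted p = 0.277). Cyp2c39, Cyp2c40, Cyp2c55 and Cyp2c69 reached at most 12.4 FPKM in any liver, and their adjusted p in edgeR ran from 0.227 to 0.831. Cyp2c40 and Cyp2c69 shared 20.3% and 20.2% of their windows with other Cyp2 genes. The letters CAAAGTCCA, a form of the HNF4A motif searched on both strands, were in the promoters of Cyp2c40, Cyp2c67, Cyp2c68 and Cyp2c69 and in 0.475% of all RefSeq mouse promoters. Pairs of these 4 promoters were 53.9 to 91.1% identical, so they may not count as separate finds. Other motifs searched were STAT, in 2 of the 39 Cyp2 promoters beside 8.29% of all, and the NRF2 core, in 1 beside 12.4%. The D box was in 1 beside 2.32%, the E box in 1 beside 7.15% and CCAAT in 18 beside 37.4%. Summed over the 12 genes, 2c came to 604 to 762 FPKM in HKO livers, against 798 to 987 FPKM in Flox livers.

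Subfamily 2d, a cluster on chromosome 15 of drug-oxidising enzymes, had 3 of 7 tested genes lower and none higher. Cyp2d40 (82759833 to 82764183, minus strand) stood at 22.1, 29.6, 23.1, 25.1 and 25.7 FPKM in HKO 1 to 5, against 44.6, 38.3, 37.0, 36.9 and 46.8 FPKM in Flox 1 to 5. The groups were well separated, and Cyp2d40 was 1.89-fold lower in HKO livers (log2 -0.92 ± 0.11 SE, edgeR adjusted p = 0.000543). The abundant Cyp2d10 and Cyp2d26 moved by less but varied little between livers. Cyp2d10 stood at 301, 297, 296, 302 and 289 FPKM in HKO 1 to 5, against 319, 330, 329, 345 and 342 FPKM in Flox 1 to 5. Cyp2d26 stood at 352, 391, 388, 373 and 358 FPKM in HKO 1 to 5, against 423, 421, 443, 455 and 426 FPKM in Flox 1 to 5. Neither gene's groups overlapped, and the drops were 1.31-fold for Cyp2d10 (edgeR adjusted p = 0.00496) and 1.36-fold for Cyp2d26 (edgeR adjusted p = 0.00288).

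Cyp2d9, a male-biased steroid hydroxylase of mouse liver, stood at 234, 194, 234, 302 and 240 FPKM in HKO 1 to 5, against 225, 303, 193, 347 and 354 FPKM in Flox 1 to 5. Flox 1 and Flox 3 were the low Flox livers here. Flox 1 lay within the HKO range and Flox 3 just below it, and the gene did not pass (log2 -0.47 ± 0.17 SE, edgeR adjusted p = 0.106). Those same livers were the high Flox livers for Cyp2b9. Cyp2d22 averaged 45.02 ± 4.25 FPKM in HKO livers and 42.3 ± 2.36 FPKM in Flox livers (edgeR adjusted p = 0.457). Cyp2d12 reached 0.521 FPKM in HKO livers and 3.35 FPKM in Flox livers (log2 -2.08 ± 0.61 SE, edgeR adjusted p = 0.0534), and it passed as lower without Flox 1 or without Flox 3. Cyp2d11 ranged from 2.26 to 16.5 FPKM in HKO livers and from 2.01 to 14.4 FPKM in Flox livers (edgeR adjusted p = 0.97). Cyp2d34 was too low to test, with 20 counts in all HKO livers and 40 in all Flox livers.

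Cyp2e1, the ethanol- and acetaminophen-oxidising enzyme of the hepatocytes around the central vein, was the most abundant Cyp2 transcript in every liver. It lies on chromosome 7 from 140763739 to 140774987 on the plus strand. It stood at 2303, 2044, 1932, 3233 and 2231 FPKM in HKO 1 to 5, against 3192, 3615, 3667, 4112 and 3595 FPKM in Flox 1 to 5. HKO 4 was just above Flox 1 in FPKM, while on the TMM scale all HKO livers were below all Flox livers. Cyp2e1 was 1.81-fold lower in HKO livers (log2 -0.86 ± 0.13 SE, edgeR adjusted p = 0.00195). Under quantile normalization Cyp2e1, Cyp2d10, Cyp2d26 and Cyp2j5 no longer passed. Cyp2e1 made up 40.9 ± 6.68% of the summed Cyp2 FPKM in HKO livers and 55.2 ± 1.91% in Flox livers (SD, n = 5 each). The share of subfamily 2a ran from 8.89 to 17.7% in HKO livers, against 2.52 to 5.35% in Flox livers, while 2d stood at 17.3% in HKO livers and 17.4% in Flox livers. All Cyp2 genes together came to 5396 to 6253 FPKM in HKO livers and 6058 to 7118 FPKM in Flox livers.

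**Figure D4:**
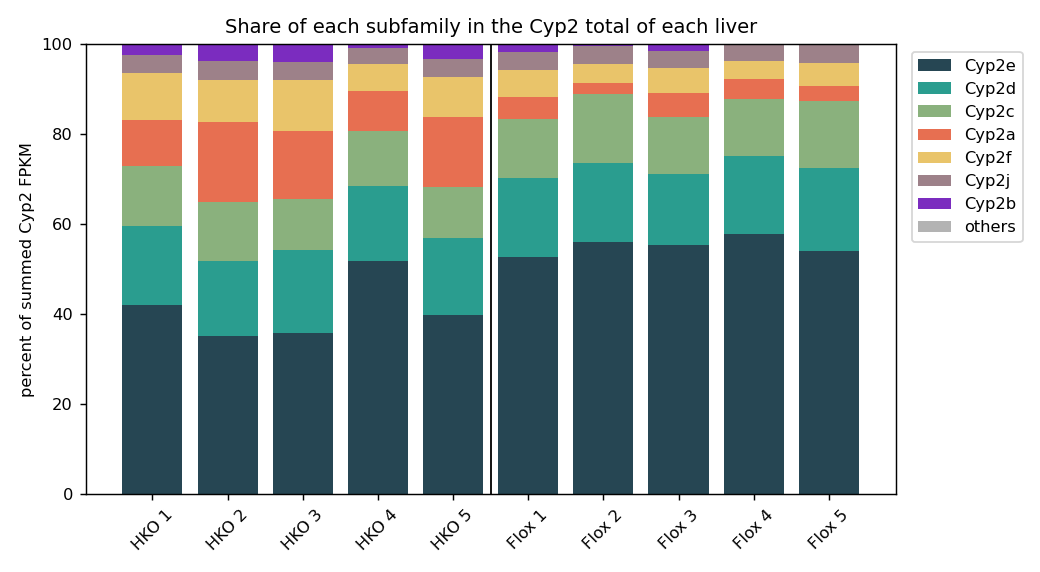
Percent of the summed Cyp2 FPKM taken by each subfamily in each liver, HKO left of Flox. The 2e share is 35.1 to 51.7% in HKO livers and 52.7 to 57.8% in Flox livers, and the 2a share is larger in every HKO liver than in any Flox liver.

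Cyp2f2, a naphthalene-oxidising enzyme known as periportal in liver, stood at 566, 551, 614, 381 and 490 FPKM in HKO 1 to 5, against 371, 272, 366, 291 and 347 FPKM in Flox 1 to 5. In FPKM every HKO liver was above every Flox liver, HKO 4 by little, while on the TMM scale the groups overlapped. Cyp2f2 did not pass over all livers (log2 0.45 ± 0.15 SE, edgeR adjusted p = 0.0856) and passed without HKO 4 and HKO 5 (log2 0.64, edgeR adjusted p = 0.0134). It also passed without HKO 4 alone (edgeR adjusted p = 0.017). The antisense gene Gm15883 overlaps it with 4154 counts against 561465, and no source used here says if strand was used in counting.

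Cyp2j5, an arachidonic acid epoxygenase (chromosome 4, 96628773 to 96664154, minus strand), stood at 198, 215, 189, 200 and 201 FPKM in HKO 1 to 5, against 216, 244, 231, 228 and 243 FPKM in Flox 1 to 5. The groups did not overlap, although HKO 2 and Flox 1 nearly met, and Cyp2j5 was 1.35-fold lower in HKO livers (log2 -0.43 ± 0.07 SE, edgeR adjusted p = 0.00356). Cyp2j6 lay between 20.2 and 21.6 FPKM in HKO livers and between 15.5 and 18.5 FPKM in Flox livers, and its TMM-scaled difference did not pass (log2 0.05 ± 0.07 SE, edgeR adjusted p = 0.67). Cyp2j9 did not pass either (edgeR adjusted p = 0.14). Cyp2j8, Cyp2j11, Cyp2j12 and Cyp2j13 were too low to test. Cyp2j12 had 32 counts in HKO livers, found in HKO 4 and HKO 5, and 0 in Flox livers. Cyp2j13 had 3 counts, in HKO 1, against 19, 7 and 4 counts in Flox 1, Flox 2 and Flox 5. Cyp2j11 had 0 counts in HKO livers, against 7, 3 and 4 counts in Flox 2, Flox 3 and Flox 5. Cyp2j8 had 7 counts in HKO 4, against 4, 9 and 7 counts in Flox 3, Flox 4 and Flox 5. The livers with Cyp2j13 counts all held kidney marker RNA, but Flox 3, with the highest kidney marker sum (17.02 FPKM), had 0 Cyp2j13 counts. The part of kidney RNA in these counts was not tested.

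Of the remaining members, Cyp2r1, a vitamin D hydroxylase, lay between 2.40 and 3.05 FPKM in HKO livers and between 2.01 and 2.37 FPKM in Flox livers (edgeR adjusted p = 0.867). Cyp2u1, a fatty acid hydroxylase, did not pass (log2 -0.79 ± 0.33 SE, edgeR adjusted p = 0.155), nor did Cyp2s1 (edgeR adjusted p = 0.773). Cyp2t4 did not pass (edgeR adjusted p = 0.529), and it overlaps the far more abundant antisense gene Egln2. Cyp2g1, known from olfactory mucosa, stood at 0.0277, 0.0178, 0.130, 2.00 and 2.27 FPKM in HKO 1 to 5, against 0.0688, 0.0557, 0.255, 0.249 and 0.0793 FPKM in Flox 1 to 5. Its high values were those of HKO 4 and HKO 5 alone, the livers with epidermal and muscle RNA, and its log2 fold change of 2.32 (edgeR adjusted p = 0.224) was -1.33 without them. The part of that RNA in the Cyp2g1 values was not tested. Cyp2w1 had 8 counts in HKO livers and 0 in Flox livers and was not tested.

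Genes that serve the P450 enzymes were read beside them. Shares over all tested genes, to set beside the list counts below, were 4.86% higher and 6.4% lower. Without HKO 4 and HKO 5 these shares were 2.45% and 2.91%. Of 17 genes for electron donors and haem supply, 1 was higher (Cyb5r1), 6 were lower (Por, Cyb5a, Alas1, Alad, Uros and Cpox) and 10 did not pass. Their median log2 fold change was -0.14, beside 0.02 over all tested genes. Por, the reductase that feeds electrons to every Cyp2 enzyme, stood at 57.4, 52.2, 35.3, 52.96 and 45.4 FPKM in HKO 1 to 5, against 78.6, 57.2, 61.6, 94.2 and 59.6 FPKM in Flox 1 to 5. Only HKO 1 just passed the lowest Flox liver in FPKM (log2 -0.75 ± 0.18 SE, edgeR adjusted p = 0.0241). Alas1, the rate-limiting enzyme of haem synthesis, averaged 32.0 ± 11.3 FPKM in HKO livers and 55.8 ± 10.1 FPKM in Flox livers (edgeR adjusted p = 0.0250). Cpox, a later haem synthesis enzyme, averaged 24.2 ± 2.36 FPKM in HKO livers and 34.3 ± 2.99 FPKM in Flox livers (edgeR adjusted p = 0.000528). Without HKO 4 and HKO 5, Alad and Cpox still passed, and Cyb5r3, Pgrmc1 and Blvrb were higher. The log2 fold changes of the other 4 kept their direction but did not pass, at -0.70 for Por (edgeR adjusted p = 0.138), -0.82 for Alas1 (edgeR adjusted p = 0.157), -0.27 for Uros and -0.23 for Cyb5a (edgeR adjusted p = 0.128 for both).

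Of 20 receptors and factors known to control Cyp2 genes, none was higher and 2 were lower, Rxra (log2 -0.26, edgeR adjusted p = 0.0494) and Nr1h3 (log2 -0.23, edgeR adjusted p = 0.0454). Neither passed without HKO 4 and HKO 5. Nr1i3, which encodes CAR, averaged 47.6 ± 13.4 FPKM in HKO livers and 68.4 ± 19.8 FPKM in Flox livers (edgeR adjusted p = 0.0599). Of 10 genes of the growth hormone axis, which sets sex-biased Cyp2 expression, Cux2 was higher (log2 0.94, edgeR adjusted p = 0.0207) at 0.233 ± 0.0815 FPKM in HKO livers and 0.103 ± 0.0131 FPKM in Flox livers. Without HKO 4 and HKO 5, Cux2 no longer passed (log2 0.64, edgeR adjusted p = 0.105).

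**Figure D5:**
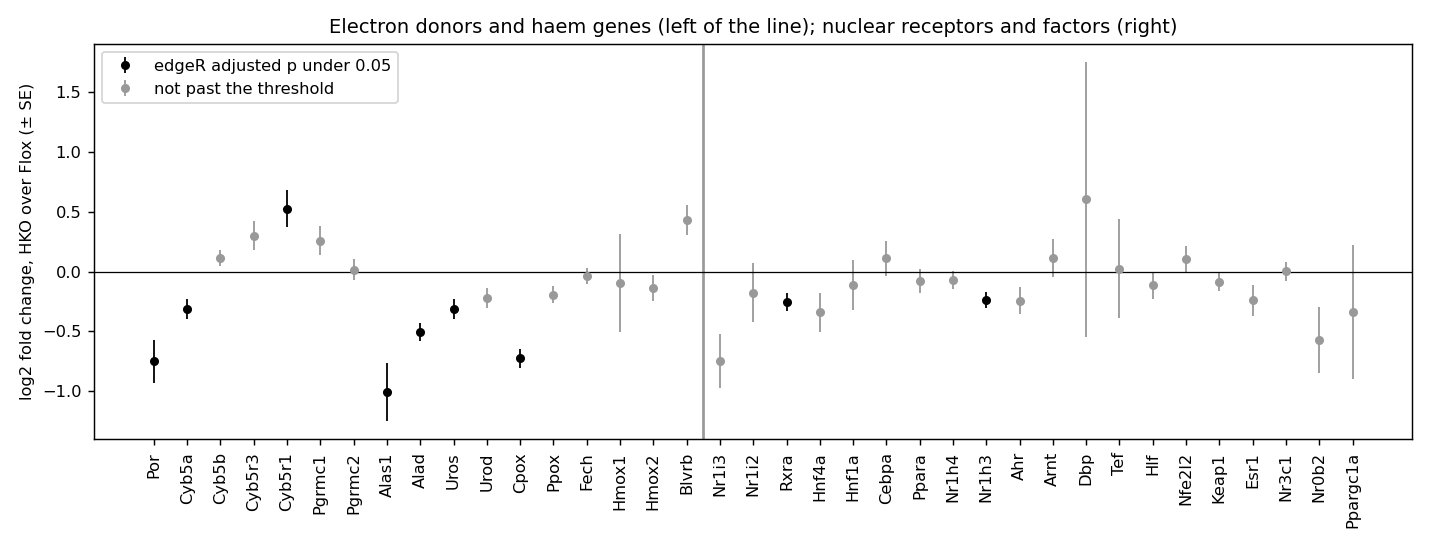
Log2 fold change, HKO over Flox, with its standard error, for genes of P450 electron transfer and haem supply and, to the right of the line, receptors and factors known to control Cyp2 genes. Cpox at -0.73, Por at -0.75 and Alas1 at -1.01 are among the called genes below 0.

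By known zone and regulation, the members split as follows. Of the 6 pericentral members, Cyp2a5 was higher, Cyp2c37, Cyp2c50, Cyp2c54 and Cyp2e1 were lower and Cyp2c29 did not pass. Of 9 pericentral marker genes outside family 2, 2 were lower, Rgn and Gulo, beside 6.4% of all tested genes, and 7 did not pass. With HKO 4 and HKO 5 left out, 4 of the 9 were lower, beside 2.91% of all tested genes. Those added were Oat (edgeR adjusted p = 0.0319) and Slc1a2 (edgeR adjusted p = 0.00794). The drop was not particular to pericentral markers. Over all livers, 3 of 7 periportal marker genes outside family 2 were lower and 1 was higher. The median log2 fold change was -0.44 for the pericentral and -0.49 for the periportal markers. Without HKO 4 and HKO 5 these medians were -0.68 and -0.37. Of 8 members known as female-biased in mouse liver, only Cyp2a4 passed, and their median log2 fold change was 1.28, beside 0.02 over all tested genes. Cyp2c40 at -0.34 and Cyp2c69 at -0.16 lay below 0, and the others above it. Without HKO 4 and HKO 5 the median was 1.12, and Cyp2g1 lay below 0. Of 9 members known as CAR or PXR targets, Cyp2a5 was higher and Cyp2c37, Cyp2c50 and Cyp2c54 were lower, with the other 5 not called. Non-parenchymal markers also differed between the groups. Higher in HKO livers were 3 of 7 macrophage, 4 of 7 stellate cell and fibroblast, 2 of 5 cholangiocyte and 2 of 5 sinusoidal endothelial markers. Over all tested genes 4.86% were higher. These counts were 2, 2, 1 and 1 without HKO 4 and HKO 5, in that order of cell types, beside 2.45% of all tested genes. The part of these markers in the Cyp2 values was not tested.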

How the data were processed

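RNA-seq libraries of 5 HKO and 5 Flox livers were analysed. Per the file headers, the authors deposited counts and FPKM per liver for 31218 genes. The tools named in the submitters' processing notes, with no role given, are StringTie 2.1.6, HISAT2 2.2.1, cutadapt 1.9, edgeR and DESeq2. The genome build, the strand setting of the counting and the treatment of shared reads are not given in the sources used here. Among 44 Cyp2 genes, 40 have the same coordinates in GENCODE M21 (GRCm38), and coordinates are printed as deposited. Promoters are RefSeq's.

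The counts, whole numbers as deposited, were treated here as estimated counts. They were tested with edgeR 4.0.16 in R 4.3.3 (filterByExpr, TMM, robust quasi-likelihood test, two-sided, Benjamini-Hochberg over 18065 genes, threshold 0.05), which was checked on simulated data. Alternatives used limma 3.58.1, on log2(FPKM + 0.5) among others, and DESeq2 1.42.0. Replicates differed by more than counting noise (chi-square per degree of freedom at least 43.7). Values per liver are given for called members with a log2 fold change of at least 0.5 in size or a mean of at least 50 FPKM, and for some uncalled members picked after their values were seen. The members, the lists and the tests were chosen with earlier results of these data known. One gene of the haem supply list is not reported here, and its list was counted without it.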

Additional observations from a re-analysis of the deposited data

Results flagged for a closer look

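Of 72 groups of 5 livers, one per tested Cyp2 gene and genotype, 3 had a liver set apart from the rest by a gap above Dixon's critical value of 0.71 of the group's range. Chance gives such a gap in about 1 in 20 groups. Cyp2e1 stood at 3233 FPKM in HKO 4, with the other HKO livers at 1932 to 2303 FPKM. Cyp2c69 stood at 7.88 FPKM in HKO 1, with the other HKO livers at 2.64 to 3.88 FPKM. Cyp2d22 stood at 46.4 FPKM in Flox 1, with the other Flox livers at 40.7 to 41.9 FPKM.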

How the results depend on the processing

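Me1, the counts of called genes and the fold changes of the Cyp2 genes were recomputed under 21 alternatives, fewer for 4 low genes (Cyp2c55, Cyp2g1, Cyp2s1 and Cyp2t4) to which some alternatives gave no tested value. The other gene lists were recomputed only without HKO 4 and HKO 5. Cyp2a4, Cyp2a5, Cyp2c23, Cyp2c50, Cyp2c54 and Cyp2d40 passed in the same direction under all 21. Cyp2d10, Cyp2d26, Cyp2e1 and Cyp2j5 lost the call under quantile normalization alone, Cyp2c67 under 6 alternatives and Cyp2c37 under 15. Calls were gained by Cyp2f2 under 7 alternatives, Cyp2d12 under 6, Cyp2j6 under 3, Cyp2c38 under 2 and Cyp2d9 under 1. Quantile normalization called 3 Cyp2 genes higher and 4 lower. DESeq2 called 3 Cyp2 genes higher and, over all genes, 1566 higher and 1626 lower. Removing the trend with gene length called 491 genes higher and 1998 lower (19.7% higher, against 43.2% in the reported fit) and moved the median of all genes by -0.11. With limma on log2(FPKM + 0.5), 3267 genes were higher and 394 lower (89.2% higher, median moved by 0.13), of which 5 Cyp2 genes were higher and 8 lower. Pseudocounts of 0.1 and 1 gave 3292 and 3224 genes higher, 398 and 390 lower, and 5 and 4 Cyp2 genes higher. Leaving out one liver at a time gave 498 to 1058 genes higher and 691 to 1162 lower, with 2 to 3 Cyp2 genes higher and 8 to 11 lower. The lowest counts over all genes came without HKO 5. Without HKO 4 and HKO 5, 454 genes were higher and 539 lower, with 3 Cyp2 genes higher. The causes were not tested.

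No sign change involved a call. Under quantile normalization the log2 fold change was 0.19 for Cyp2a12, -0.039 for Cyp2b10, 0.054 for Cyp2c29, 0.0507 for Cyp2d22, -0.0409 for Cyp2d11 and -0.11 for Cyp2r1. On log2 FPKM with pseudocounts of 0.1, 0.5 and 1 it was 0.16 each time for Cyp2a12, 0.00739, 0.00735 and 0.0073 for Cyp2c29, 0.00732, 0.00522 and 0.00401 for Cyp2c69, and 0.0851, 0.0844 and 0.0835 for Cyp2d22. With the length trend removed it was -0.00922 for Cyp2d11, -0.0583 for Cyp2j6 and -0.0403 for Cyp2r1. Without HKO 4 and HKO 5 it was 0.0496 for Cyp2a12, 0.18 for Cyp2c69, 0.0168 for Cyp2d22 and -1.33 for Cyp2g1. Over single livers left out it ran from -0.15 to 0.0121 for Cyp2a12, from -0.14 to 0.73 for Cyp2b10 and from -0.42 to 0.56 for Cyp2d11. No paired analysis was possible because no title number occurs in both groups.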

Other observations

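Outside the naming rule, Cyp2ab1 and the Cyp2 pseudogenes with symbols ending in -ps were also read, and of these Cyp2a21-ps passed the test. It stood at 4.10, 5.61, 5.43, 4.87 and 6.28 FPKM in HKO 1 to 5, against 0.608, 0.226, 1.57, 1.502 and 0.387 FPKM in Flox 1 to 5, with no overlap (log2 2.38 ± 0.46 SE, edgeR adjusted p = 0.00869). Its span overlaps that of Cyp2a22 on the opposite strand, and without a known strand setting some reads there may belong to either gene. Reads that Cyp2a21-ps may share with other near copies were not examined. None of the tested 2d pseudogenes passed.

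Of 7 periportal marker genes outside family 2, Hsd17b13, a lipid droplet protein, was higher at 292 ± 38.5 FPKM in HKO livers and 166 ± 38.5 FPKM in Flox livers (edgeR adjusted p = 0.0434). Hal, Ass1 and Pigr were lower, and 3 did not pass. Hal no longer passed without HKO 4 and HKO 5 (edgeR adjusted p = 0.0963).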
